A study of Mus musculus with 10 samples.

Results

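The 4 Wnt1-Cre mutant libraries of this study were treated as a single group and set against wild type (WT), to find the genes that stood on the same side of WT in every mutant. The mutants were 3 Hand2 f/f; Wnt1-Cre+ libraries (Hand2 cKO 1, 2 and 3) and 1 library of the Wnt1-Cre+ knockout of both Gli2 f/f and Gli3 f/f (Gli2/3 cKO 3), and the controls were WT 3 and WT 4. These are 6 of the 10 samples in the series, and the other 4 (WT 1 and 2, Gli2/3 cKO 1 and 2) were not analysed here. All came from the mandibular prominence (MNP) of CD1 mouse embryos at embryonic day 10.5, and RNA was sequenced in bulk. Wnt1-Cre drives recombination in neural crest cells (NCCs) and in the dorsal neural tube where they arise, so the other cells of the MNP keep the floxed genes. All mutants carry Wnt1-Cre and neither WT library is labelled as carrying it, and no group has Wnt1-Cre without a floxed gene. A response that both knockouts share and a response to Wnt1-Cre itself therefore cannot be told apart in this design. Nothing in the labels says whether the libraries of a group came from separate litters, so p-values measure only the spread between these libraries.

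The MNP is the embryonic bud from which the lower jaw and the front of the tongue form. Most of its mesenchyme derives from NCCs, which become cartilage, bone and connective tissue under signals from the surrounding epithelium. Hand2 is a helix-loop-helix regulator expressed in the distal MNP, downstream of endothelin signalling, and Gli2 and Gli3 are the zinc-finger factors that carry the Hedgehog signal to its target genes in the same cells. The published work on these mutants asked how the 2 pathways meet in the jaw, and the pooled comparison asks what the mutants have in common.

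Values are CPM (counts scaled to a common library size) after trimmed-mean (TMM) scaling, unless a log2 fold change is named. Depth ran from 21420197 estimated counts in WT 4 to 53326697 in Hand2 cKO 1, with 25421663 in the Gli2/3 cKO library. Haemoglobin transcripts took 1.26% of WT 4 and 0.264% of WT 3, against 0.344% to 0.712% of the mutants. Hand2 cKO 2 stood apart in read composition. Relative to the mean of all 6 libraries, its counts fell by 0.345 log2 units per doubling of transcript length. In the other libraries the slopes ran from -0.00952 to 0.137. The Y-linked gene Ddx3y was at 22.2 CPM or more in 1 WT library and 2 mutants (WT 4, Gli2/3 cKO 3 and Hand2 cKO 2) and did not exceed 0.29 CPM in the rest, so both groups mixed the sexes. The 18 tested markers of NCC mesenchyme summed to between 2598 and 3023 CPM in every library, while the 2 tested Hox genes of more posterior arches summed to at most 4.31 CPM. Hoxa2, a marker of the second arch that was below the filter, was uneven, with 5 and 7 counts in WT 3 and 4, 135, 0 and 35 counts in Hand2 cKO 1, 2 and 3 and 13 counts in the Gli2/3 cKO, and its part in the results was not tested. In bulk tissue, fewer cells of a type and less RNA per cell cannot be told apart.

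The targeted genes were examined first, because they check the labels. Hand2 was at 175 and 212 CPM in WT 3 and 4, at 13.4, 25 and 15.6 CPM in Hand2 cKO 1, 2 and 3, and at 146 CPM in the Gli2/3 cKO. All 4 mutants thus lay below both WT libraries, but the Gli2/3 cKO lay only a little below, and the pooled log2 fold change of -1.96 ± 0.95 (SE) had an adjusted p of 0.813 in edgeR. Gli2 was at 122 and 107 CPM in WT, at 119, 78.8 and 122 CPM in the Hand2 cKO and at 58.9 CPM in the Gli2/3 cKO. Gli3 was at 176 and 147 CPM in WT, at 195, 112 and 137 CPM in the Hand2 cKO and at 81 CPM in the Gli2/3 cKO. Gli2 and Gli3 were thus lowest in the library labelled as their knockout, and the Hand2 cKO values overlapped WT in Gli2 and lay on both sides of it in Gli3. The counts are summed over whole genes, so they can include reads from parts of a gene that recombination leaves in place. Wnt1, whose promoter drives the Cre transgene, did not pass the filter on low values, with 0 counts in both WT libraries and in Hand2 cKO 1 and 2, 1 count in Hand2 cKO 3 and 21 counts in the Gli2/3 cKO.

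Few genes were shifted clearly in all 4 mutants, and most of these were lower. Of the 13761 genes tested, 99 had every mutant below both WT libraries with a gap of at least 1.5-fold (0.719% of genes), and 22 had every mutant above both by that gap (0.16%). The last genes inside the gap were Hsd11b2 (1.506-fold, lower) and Angpt1 (1.51-fold, higher), and those just outside were Esyt1 (1.499-fold) and Pou3f3 (1.496-fold). With no gap asked for, 1473 genes were lower (10.7%) and 1575 were higher (11.4%) in all 4 mutants, so on this scaling the excess of lower genes appeared only with the gap. That wider split moved with the scaling, to 2201 lower and 957 higher on plain CPM and to 1376 lower and 2491 higher once the length trend was removed.

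No gene was called at an adjusted p below 0.05 with a fold above 1.5 in edgeR's quasi-likelihood test, either higher (0% of genes) or lower (0%). The lowest adjusted p in that test was 0.127, for Sdpr. At an unadjusted p below 0.05 edgeR had 372 genes higher (2.7%) and 484 lower (3.52%). DESeq2 at the same thresholds called 22 genes higher (0.16%) and 77 lower (0.56%), and limma voom called 1 higher and 59 lower. Of the 99 DESeq2 calls, 66 were also shifted in all 4 mutants by the gap, 54 of them lower and 12 higher. The named genes below are thus ordered by a test that none of them passed after adjustment, and the words higher and lower refer to the position of the libraries. That test counts a difference between the knockouts as spread within the mutants. Its order, like the gap rule, therefore favours genes whose 4 mutants are alike.

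The lower genes with the smallest p included several membrane, matrix and secreted proteins and 2 imprinted genes. Sdpr, also named Cavin2, encodes a coat protein of caveolae, the small pits of the cell membrane. It was at 10.7 and 11.9 CPM in WT 3 and 4 and at 1.38, 1.12, 1.9 and 1.62 CPM in Hand2 cKO 1, 2, 3 and Gli2/3 cKO 3. The mutants were close to each other and far below WT, at 13.3% of the WT mean, a log2 fold change of -2.91 ± 0.25 (SE, 95% interval -3.50 to -2.32). Its adjusted p was 0.127 in edgeR and 3.19e-20 in DESeq2. The Hand2 cKO and Gli2/3 cKO differed by -0.15 on the log2 scale, with an interval from -1.07 to 0.78.

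Islr, a secreted leucine-rich repeat protein of mesenchymal cells, was at 19.4 and 28 CPM in WT and at 7.42, 7.68, 7.37 and 7.23 CPM in the mutants, listed in the same order. The mutants spanned less than 1 CPM, below both WT libraries (-1.67 ± 0.18 log2, DESeq2 adjusted p 4.83e-11). The annotated Islr gene overlaps Islr2, so that counts of this pair are less certain. Islr2 was at 1.44 and 1.3 CPM in WT against 0.264 to 0.658 CPM in the mutants. It passed the filter on low values only through the WT libraries, so its lower place was partly set by the filter. Pmp22, a membrane protein best known from myelin, was at 24.9 and 33.6 CPM in WT and at 9.52, 11.9, 8.48 and 10.1 CPM in the mutants. Itm2a, a transmembrane protein also expressed in developing cartilage, was at 100.3 and 95.1 CPM in WT and at 43.7, 54.6, 42.7 and 46.6 CPM in the mutants. Neither gene's groups overlapped, and the log2 fold changes were -1.55 ± 0.19 for Pmp22 and -1.06 ± 0.13 for Itm2a, both with an adjusted p of 0.234 in edgeR.

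Matrix genes were among the lower ones. Postn (periostin, a secreted matrix protein of connective tissue) was at 41.2 and 34.6 CPM in WT and at 13.8, 7.55, 12.1 and 8.2 CPM in the mutants (-1.86 ± 0.27 log2). Col9a2, a chain of the cartilage collagen IX, was at 30 and 28.9 CPM in WT and at 13.1, 14, 12.6 and 9.32 CPM in the mutants (-1.26 ± 0.18). The Gli2/3 cKO had the lowest Col9a2 value, and the knockouts differed by 0.51 on the log2 scale (interval 0.03 to 0.99, adjusted p 0.927 in edgeR). Lrrc17, another secreted leucine-rich repeat protein, was at 25.5 and 33 CPM in WT and at 10.9, 11.4, 11 and 14.1 CPM in the mutants.

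The remaining lower genes named by the rule have varied roles. Npr3, the clearance receptor for natriuretic peptides, was at 30.6 and 30.7 CPM in WT and at 17.2, 13.6, 12.8 and 13.5 CPM in the mutants. Synpo2, an actin-binding protein, was at 27.5 and 31.1 CPM in WT and at 9.97, 6.48, 10.2 and 11.3 CPM in the mutants. Zcchc5, a gene derived from a retrotransposon, was at 13.1 and 10.9 CPM in WT and at 1.98, 0.856, 1.61 and 0.58 CPM in the mutants. It had the largest difference of the 15 lower genes, -3.23 ± 0.45 on the log2 scale. Pcp4l1, Fam84a and AW551984 were at 24.6%, 40.4% and 38.4% of their WT means. All 15 lower genes were called by DESeq2. Likeness of the knockouts in these genes follows in part from how they were chosen.

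**Figure D1:**
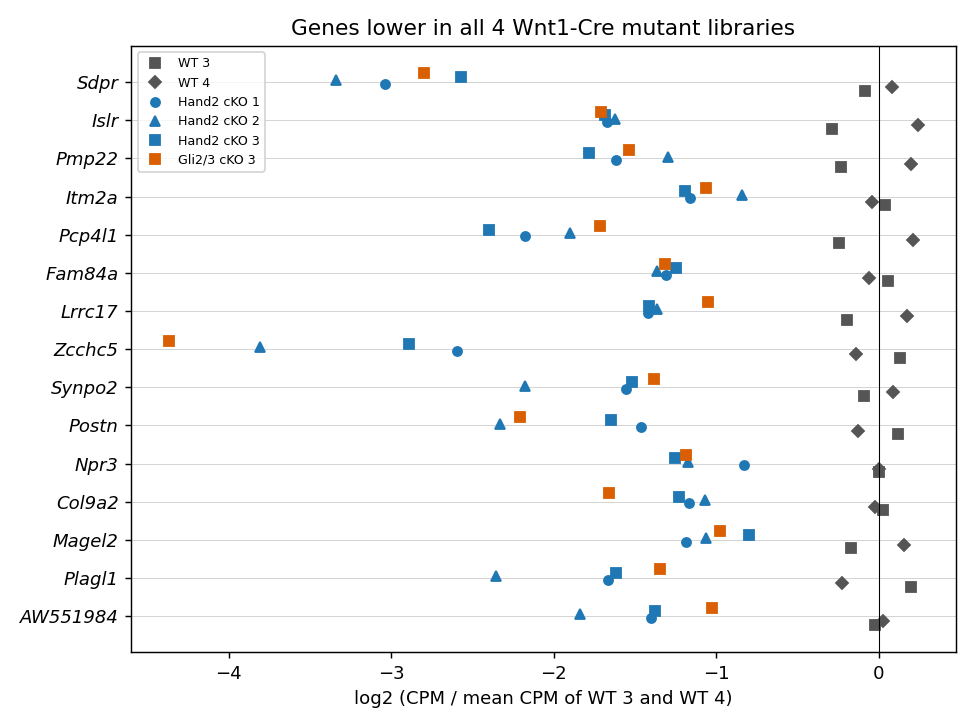
The 15 lower genes with the smallest p, each library's CPM relative to the mean of WT 3 and WT 4 on a log2 axis, with gray for WT, blue for Hand2 cKO and orange for Gli2/3 cKO. In every gene the 4 mutants lie left of both WT libraries, nearest in Itm2a, Npr3 and Magel2 and farthest in Zcchc5, where the Gli2/3 cKO is lowest at 0.58 CPM.

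On the higher side 6 genes met the rule. Aldh1a3, which makes retinoic acid from retinal, was at 0.8 and 0.942 CPM in WT and at 2.66, 2.75, 2.51 and 2.48 CPM in the mutants. The mutants were tight and at 2.98 times the WT mean (1.58 ± 0.26 log2, adjusted p 0.325 in edgeR and 0.000263 in DESeq2). Tmem70, an assembly factor of the mitochondrial ATP synthase, was at 20.4 and 18 CPM in WT and at 37.1, 48.4, 35 and 34.4 CPM in the mutants (1.01 ± 0.18). Yy2, a zinc-finger factor related to Yy1, was at 4.35 and 2.24 CPM in WT and at 9.5, 9.31, 8.39 and 8.78 CPM in the mutants (1.43 ± 0.29). These 3 genes had nearly the same value in both knockouts, with differences between them of 0.09, 0.22 and 0.05 on the log2 scale. The order by pooled p favours such likeness.

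The other higher genes varied more. Slc15a2, a transporter of small peptides, was at 1.11 and 2.42 CPM in WT and at 7.78, 6.38, 17.5 and 7.39 CPM in the mutants, so 1 library carried much of its mean. Angpt1, a ligand of the endothelial receptor Tek, was at 4.66 and 4.53 CPM in WT and at 12.8, 8.97, 12.9 and 7.04 CPM in the mutants. Lypd1 was at 3.14 and 0.808 CPM in WT and at 6.1, 6.59, 6.31 and 7.43 CPM in the mutants. Here the WT libraries differed from each other more than the mutants did. Lypd1 lies 6814003 bp from Gli2 on chromosome 1.

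**Figure D2:**
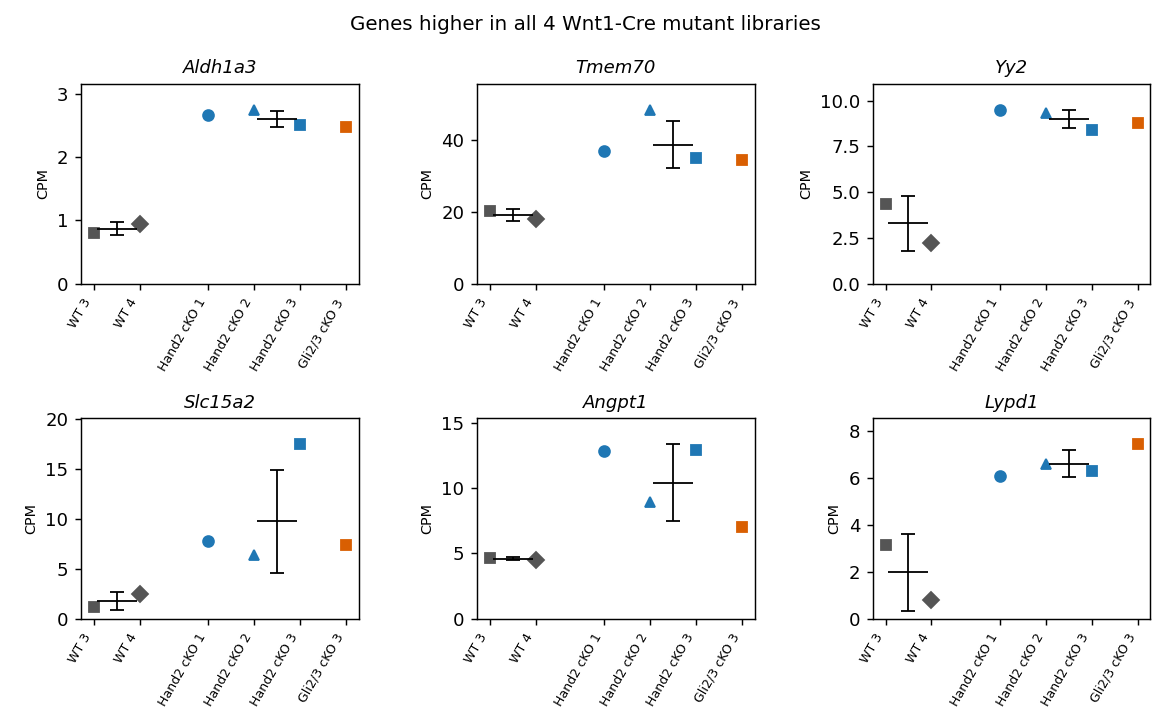
CPM of the 6 higher genes in each library on linear axes from 0, with gray for WT, blue for Hand2 cKO and orange for Gli2/3 cKO, and horizontal lines for the mean with SD bars of WT (n = 2) and of all mutants (n = 4). The 4 mutants lie above both WT libraries in each gene, tightly in Aldh1a3 (2.48 to 2.75 CPM) and widely in Slc15a2 (6.38 to 17.5 CPM).

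Imprinted genes, which are read from only the maternal or the paternal copy and include several regulators of fetal growth, leaned to the lower side. Of the 30 tested, 11 were lower in all 4 mutants with no gap asked for (36.7%, against 10.7% of all genes) and 0 were higher, and 3 passed the gap. Their median log2 fold change was -0.30, beside 0.02 over all genes. The 11 were Igf2, Plagl1, Dlk1, Rtl1, Igf2r, Peg3, Usp29, Zim1, Magel2, Dcn and Trappc9. Whether each is imprinted in the MNP was not tested, and Dcn is also in the collagens and matrix list below. The list and its members were chosen with earlier results of these data known.

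Plagl1, a zinc-finger factor that regulates other imprinted genes, was at 449 and 334 CPM in WT and at 123, 76.6, 128 and 154 CPM in the mutants (-1.70 ± 0.27 log2, DESeq2 adjusted p 6.92e-06). Magel2, a regulator of protein ubiquitination and endosomal sorting, was at 151 and 190 CPM in WT and at 75, 81.6, 98 and 86.6 CPM in the mutants (DESeq2 adjusted p 3.75e-05). Both knockouts showed these differences to a like degree, with log2 fold changes against WT of -1.84 (Hand2 cKO) and -1.35 (Gli2/3 cKO) for Plagl1 and of -1.01 and -0.98 for Magel2. The 2 contrasts share the WT libraries, and both genes are among the 15 lower genes, whose order favours likeness of the knockouts.

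For Igf2, the fetal insulin-like growth factor, the knockouts were less alike. It was at 3867 and 3935 CPM in WT, at 1087, 969 and 1185 CPM in the Hand2 cKO, and at 2601 CPM in the Gli2/3 cKO. Every mutant lay below WT, and the Gli2/3 cKO lay between the other mutants and WT. The pooled log2 fold change was -1.42 ± 0.40, with an adjusted p of 0.736 in edgeR and 0.0543 in DESeq2, and the difference between the knockouts was -1.27 (interval -1.76 to -0.77, adjusted p 0.288 in edgeR). Dlk1, a transmembrane protein of the Notch ligand family, was at 815 and 997 CPM in WT and at 337, 477, 344 and 622 CPM in the mutants. Its neighbour Rtl1, a retrotransposon-derived gene, was at 13.5 and 16.4 CPM in WT and at 5.99, 7.78, 7.11 and 9.79 CPM in the mutants. In each of these 3 genes the Gli2/3 cKO was the mutant nearest to WT.

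Not every imprinted gene followed. Grb10, an adaptor that restrains insulin and growth factor signalling, was at 1790 and 1811 CPM in WT and at 1770, 1248, 1846 and 1776 CPM in the mutants. Cdkn1c, a cell cycle inhibitor, was at 403 and 252 CPM in WT and at 298, 418, 277 and 237 CPM in the mutants. The groups overlapped in both genes. Outside the list, and chosen after its values were seen, the deiodinase gene Dio3 of the Dlk1 region was at 1.37 and 2.11 CPM in WT and at 0.227, 0.285, 0.169 and 0.503 CPM in the mutants. Dio3 passed the filter on low values only through the WT libraries. Dio2, which activates the thyroid hormone that Dio3 inactivates, was also lower, from 5.97 and 6.78 CPM in WT to between 0.571 and 2.67 CPM.

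**Figure D3:**
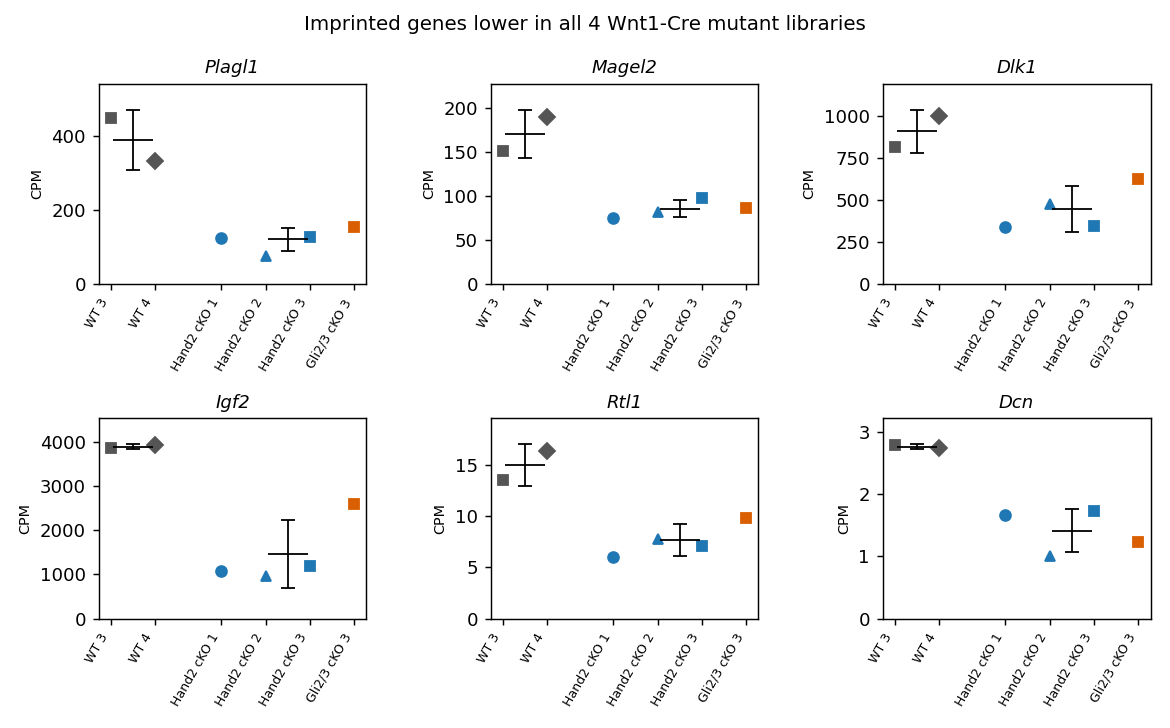
CPM of 6 imprinted genes, picked from the 11 of 30 tested that were lower in all 4 mutants. Each library is shown on linear axes from 0, with gray for WT, blue for Hand2 cKO and orange for Gli2/3 cKO, and means with SD bars of WT (n = 2) and of all mutants (n = 4). All mutants lie below both WT libraries, as the choice of genes requires. In Igf2 the Gli2/3 cKO at 2601 CPM stands between WT and the 3 Hand2 cKO libraries at 969 to 1185 CPM.

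Collagens and other matrix genes, the structural proteins that mesenchyme secretes, had the largest share of lower members of any list with at least 10 genes tested. Of 25 tested, 15 were lower in all 4 mutants (60%, against 10.7% of all genes) and 0 were higher, and the median log2 fold change was -0.40. In 2, Postn and Dcn, the 1.5-fold gap was met, and Dcn is also counted among the imprinted genes above. Removing the length trend left 13 of 25 lower, and leaving out any 1 library left 15 to 18, where 11.8% to 21.3% of all genes were lower.

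Collagen VI, which forms fine filaments around cells, was lower in its 3 tested chains. Col6a3 was at 35.9 and 28.7 CPM in WT and at 19.5, 7.42, 16.3 and 6.23 CPM in the mutants, and Col6a1 was at 20.1 and 17.5 CPM in WT and at 13.5, 9.93, 12.7 and 9.44 CPM in the mutants. Eln, the elastin gene, was at 8.56 and 9.56 CPM in WT and at 5.06, 3.94, 5.23 and 6.19 CPM in the mutants (-0.83 ± 0.22 log2). Fbln2, a matrix glycoprotein, was at 128 and 114 CPM in WT and at 91.2, 71.2, 87.7 and 74.8 CPM in the mutants (-0.57 ± 0.15). These genes had unadjusted p-values of 0.021, 0.00849, 0.00701 and 0.00623 in edgeR, and none passed after adjustment. Col3a1, a fibrillar collagen of soft connective tissue, overlapped between the groups, at 674 and 543 CPM in WT and at 711, 618, 724 and 423 CPM in the mutants.

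Skeletal genes split. Of 15 tested, 6 were lower in all 4 mutants (Col9a1, Col9a2, Col9a3, Sp7, Col1a1 and Maf) and 2 were higher. These are 40% lower, against 10.7% of all genes, and 13.3% higher, near the 11.4% of all genes. The median log2 fold change was -0.15. The 2 higher ones were Sox9, the master factor of cartilage, at 70.9 and 49.1 CPM in WT and at 89.4, 83.8, 96.8 and 87.2 CPM in the mutants, and its collagen target Col2a1. Maf, a factor of maturing chondrocytes, was at 9.91 and 8.75 CPM in WT and at 4.46, 2.88, 5.64 and 4.25 CPM in the mutants (-1.12 ± 0.27 log2, DESeq2 adjusted p 0.0467). Col9a2 and Maf were the members that met the gap.

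**Figure D4:**
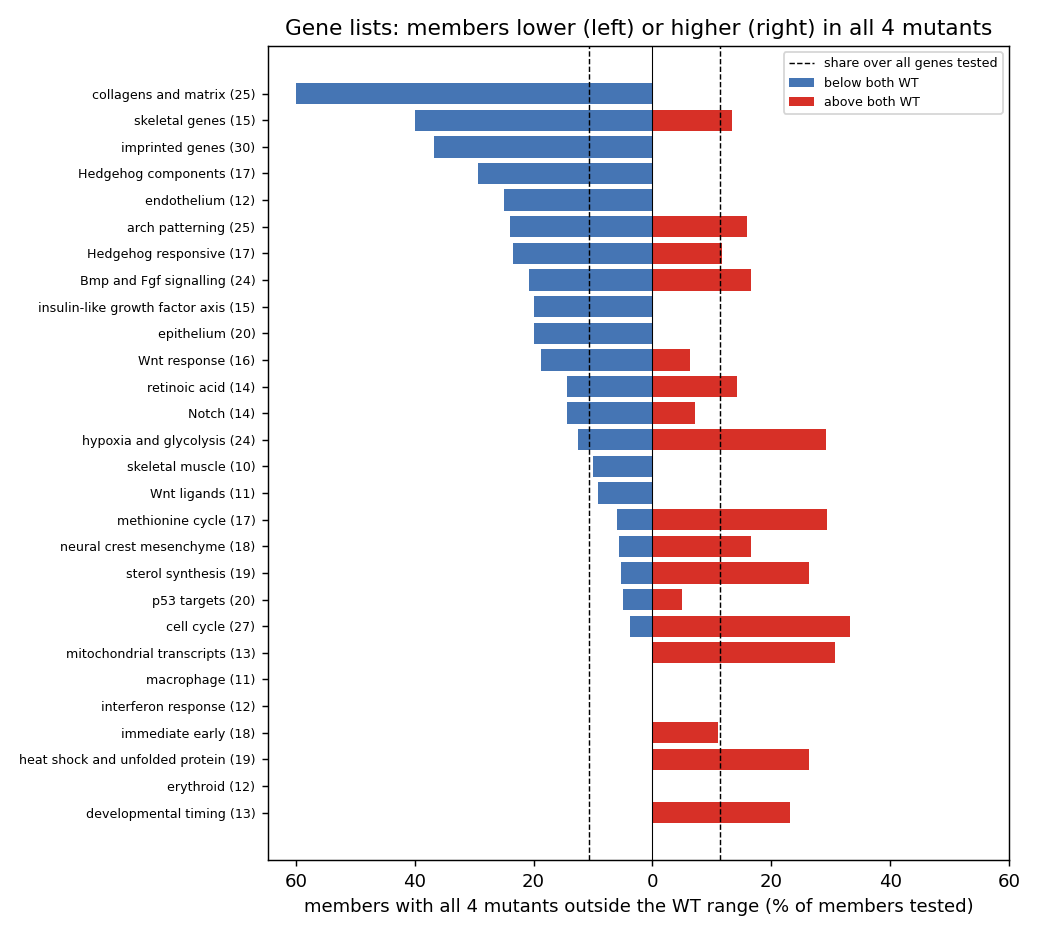
Share of the tested members of each gene list that lay below (blue, to the left) or above (red, to the right) both WT libraries in all 4 mutants, with the number tested in parentheses, for lists with at least 10 tested genes. Dashed lines mark the shares over all 13761 genes, 10.7% lower and 11.4% higher, and the bar for collagens and matrix reaches 60% lower.

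Some genes that pattern the jaw were lower in all 4 mutants but to unequal degrees, and 1 library stands for the Gli2/3 cKO. Of 25 arch patterning genes, 6 were lower (24%, against 10.7% of all genes) and 4 higher (16%, against 11.4%) in all 4 mutants. Their median log2 fold change was 0.14. Gsc, a homeobox factor needed for jaw and middle ear elements, was at 41.7 and 30.8 CPM in WT, at 5.34, 5.63 and 3.35 CPM in the Hand2 cKO and at 14.1 CPM in the Gli2/3 cKO (DESeq2 adjusted p 0.00197). Hand1, the close relative of Hand2, was at 64.1 and 117 CPM in WT, at 6.27, 3.99 and 5.23 CPM in the Hand2 cKO and at 35.7 CPM in the Gli2/3 cKO. Alx4, a homeobox factor of facial midline mesenchyme, was at 218 and 233 CPM in WT, at 98.2, 62.3 and 95.4 CPM in the Hand2 cKO and at 181 CPM in the Gli2/3 cKO. Hand1 and Alx4 were not called by DESeq2 (adjusted p 0.323 and 0.269). In Gsc, Hand1 and Alx4 the Gli2/3 cKO was the mutant nearest to WT. For Alx4 its log2 fold change against WT was only -0.32, beside -1.40 in the Hand2 cKO. Among the higher genes Pou3f3, a POU homeobox factor, was just outside the gap, at 3.39 and 1.08 CPM in WT and at 5.08, 5.52, 5.3 and 12.4 CPM in the mutants.

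Foxf1 and Gli1, both Hedgehog-responsive, were lowest in the Gli2/3 cKO. Foxf1, a Hedgehog-responsive forkhead factor, was at 56.8 and 63.7 CPM in WT, at 30.7, 29 and 28.8 CPM in the Hand2 cKO and at 4.91 CPM in the Gli2/3 cKO. Its adjusted p in the pooled comparison was 0.452 in DESeq2. It was lower in all 4 mutants by the gap, and the knockouts differed by 2.59 on the log2 scale (interval 2.10 to 3.07, adjusted p 0.0432 in edgeR). Gli1, whose level follows Hedgehog activity, was at 110.0 and 121 CPM in WT, at 107, 94.9 and 102 CPM in the Hand2 cKO and at 25.95 CPM in the Gli2/3 cKO. Scube1, a secreted protein that helps to release Hedgehog ligands, was at 81.4 and 57.9 CPM in WT and at 50.9, 33, 44.6 and 31.1 CPM in the mutants. Of 17 Hedgehog components tested, 5 were lower in all 4 mutants (29.4%) and 0 higher. Over all genes, 10.7% were lower and 11.4% higher. Of 17 Hedgehog-responsive genes, 4 were lower and 2 higher, with medians of 0.24 in the Hand2 cKO and -0.70 in the Gli2/3 cKO on the log2 scale.

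Over the whole set, the difference between the knockouts was tested for every gene. It had an unadjusted p below 0.05 in 19 of the 99 lower genes and in 1 of the 22 higher genes, where 701 of all genes did (5.09%), and 5 of all genes passed after adjustment. Besides the genes above, those 19 included Cited1, a transcriptional co-activator, and Gpr50, a G protein-coupled receptor without a known ligand. Cited1 was at 66.8 and 68 CPM in WT, at 9.44, 13.5 and 8.29 CPM in the Hand2 cKO and at 24 CPM in the Gli2/3 cKO. Gpr50 was at 75.3 and 94.7 CPM in WT, at 12.2, 16.5 and 17.8 CPM in the Hand2 cKO and at 34.4 CPM in the Gli2/3 cKO. In both genes all mutants were far below WT and the Gli2/3 cKO was the least so. These 2 genes were chosen after their values were seen.

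Signalling lists were less one-sided, beside 10.7% of all genes lower and 11.4% higher. The retinoic acid and Notch counts were near these shares. In the retinoic acid list 2 of 14 genes were higher and 2 lower. Cyp26b1, which degrades retinoic acid, was at 22.8 and 20.9 CPM in WT and at 10.2, 5.89, 8.43 and 13.3 CPM in the mutants (-1.21 ± 0.30 log2, DESeq2 adjusted p 0.0389), against the higher Aldh1a3 and Cyp26a1. Aldh1a3 passed the filter on low values only through the mutants. Of 11 Wnt ligands, 1 was lower (Wnt2b, 4.57 and 3.14 CPM in WT against 1.24 to 2.7 CPM) and 0 higher. Of 16 Wnt response genes, 3 were lower and 1 higher. Dkk2, a secreted Wnt modulator, was at 15.8 and 16.5 CPM in WT and at 11.5, 8.77, 10.1 and 9.21 CPM in the mutants (DESeq2 adjusted p 0.0331). In the insulin-like growth factor axis 3 of 15 were lower (Igf2, Igf2r and Igfbp7), and Igfbp7 passed the filter on low values only through the WT libraries. Of 24 Bmp and Fgf genes, 5 were lower and 4 higher, and of 14 Notch genes 2 were lower and 1 higher. Spry2, an inhibitor of Fgf signalling, was at 21.9 and 20.7 CPM in WT and at 28.3, 31.1, 30.8 and 30.1 CPM in the mutants (DESeq2 adjusted p 0.0274).

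Growth and metabolism lists leaned to the higher side with small differences. Of 27 cell cycle genes, 9 were higher in all 4 mutants and 1 lower, with a median log2 fold change of 0.13. Both cyclin E genes were among the 9, with Ccne2 at 34.6 and 24.7 CPM in WT and at 42.2, 36.2, 41.5 and 43.7 CPM in the mutants. In hypoxia and glycolysis, 7 of 24 were higher and 3 lower. The 3 lower ones were Hk1, P4ha2 and Egln3. In sterol synthesis 5 of 19 were higher and 1 lower, with Idi1, an enzyme of the isoprenoid pathway, at 91.4 and 83.8 CPM in WT and at 115, 133, 127 and 139.8 CPM in the mutants. In the methionine cycle 5 of 17 were higher and 1 lower, and in heat shock and unfolded protein genes 5 of 19 were higher and 0 lower. Over all genes, 11.4% were higher and 10.7% lower. These counts moved with the scaling: on plain CPM, where 6.95% of all genes were higher and 16% lower, they were 4 higher and 2 lower for cell cycle, 4 and 4 for hypoxia and glycolysis, 3 and 1 for sterol synthesis, 2 and 1 for the methionine cycle and 4 and 0 for heat shock. For the methionine cycle they were 4 and 3 on upper-quartile scaling and 9 and 1 with the length trend removed. None of these genes passed edgeR's test after adjustment.

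All 13 mitochondrial transcripts had a positive log2 fold change, with a median of 0.45, but only 4 were above both WT libraries in all 4 mutants. The WT libraries were far apart here, with sums of 13326 and 20184 CPM, against 20239 to 22687 CPM in the mutants. Without WT 3, 11 of the 13 were higher, and without WT 4 it was 3. Of 13 developmental timing genes, 3 were higher and 0 lower, among them Lin28b, an RNA-binding protein of early cell states, at 72.1 and 65.4 CPM in WT and at 98.9, 86.4, 121 and 174 CPM in the mutants. In 20 p53 targets 1 was higher and 1 lower, in 18 immediate early genes 2 were higher and 0 lower, and in 12 interferon response genes none was outside WT in either direction. Over all genes, 11.4% were higher and 10.7% lower.

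Markers of other cell types were read beside these results and the shares of all genes, 10.7% lower and 11.4% higher. Of 12 tested endothelial markers, 3 were lower in all 4 mutants and 0 higher, and their summed level was 291 to 331 CPM in WT and 262 to 289.7 CPM in the mutants. Epithelial markers summed to 528 to 551 CPM in WT and 497 to 593 CPM in the mutants, with 4 of 20 lower and 0 higher. Erythroid markers ranged from 2644 to 12490 CPM in WT and from 3508 to 8003 CPM in the mutants, and 0 of 12 lay outside WT. Macrophage markers were also at 0 of 11, at 34.6 to 45.9 CPM in WT and 28.4 to 40.4 CPM in the mutants. NCC mesenchyme markers had 3 of 18 higher and 1 lower. Their part in the results above was not tested.

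Small marker sets for rarer cells are given beside the shares of all genes, 10.7% lower and 11.4% higher. Cardiac muscle markers summed to 8.21 to 12 CPM in WT and 4.21 to 7.58 CPM in the mutants, with 2 of 4 lower. Tnni1, 1 of these 2, passed the filter on low values only through the WT libraries, so its place in the count was partly set by the filter. Schwann and early crest markers summed to 37 to 39.1 CPM in WT and 20.9 to 33.4 CPM in the mutants, with 2 of 5 lower. The summed levels of these 2 sets did not overlap between the groups, and those of the neural progenitor and skeletal muscle sets did. Neural progenitor markers had 3 of 6 higher and 1 lower, with sums of 103 to 133 CPM in WT and 123 to 169 CPM in the mutants. Otx2, a factor of the forebrain and midbrain, was at 0.449 and 0.404 CPM in WT and at 1.08, 1.3, 0.988 and 1.7 CPM in the mutants. It passed the filter on low values only through the mutants. Its relative Otx1, in the same list, was the lower member, at 2.09 and 2.24 CPM in WT and at 1.51, 0.856, 1.2 and 1.24 CPM in the mutants. Skeletal muscle markers had 1 of 10 lower (Pax3) and sums of 42.9 to 57.3 CPM in WT and 35.7 to 56.4 CPM in the mutants. Lbx1, which marks migrating muscle precursors and was below the filter, had 31 and 16 counts in WT and 0 in every mutant. In neurons and placode ganglia 2 of 6 were lower and 1 higher, in beta protocadherins 1 of 6 was lower, and in pharyngeal endoderm 0 of 7 and in Y-linked genes 0 of 4 were outside WT.

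The gap-shifted genes were then described by gene class, transcript length and level. Length is not independent of the rule, because counts of Hand2 cKO 2 fell with length and each mutant had to clear the gap. Level is part of the rule and of the filter. Of the 99 lower genes 93 were protein coding, and their median transcript length was 3189 bases, against 2867 over all genes. Of the 22 higher genes 17 were protein coding and 5 were pseudogenes (22.7%, against 3.33% of all genes), and their median length was 1756 bases. In 27 of the lower genes all mutants were under 1 CPM, and in 13 of the higher genes both WT libraries were. These genes passed the filter only through the group where they were high. A few gene models switched between 0 or near 0 and higher levels. The processed pseudogene Gm8730 was at 0.117 and 1.75 CPM in WT and at 87.3, 194, 79.8 and 153 CPM in the mutants, while Rplp0 was at 1431 to 2684 CPM over all libraries. The transcript Gm15725 had 79 and 55 counts in WT and 0 in every mutant. On chromosome 14, 6 of the 488 genes tested were higher (1.23%, against 0.16% of all genes). Among them were the numbered gene models Gm10340, Gm3095, Gm3173, Gm3629 and Gm6356. These belong to a duplicated family, so that the division of reads among them is uncertain. The same holds for the pair Tmem254a and Tmem254b, which had the same values (15 and 12 CPM in WT, 4.06 to 7.54 CPM in the mutants).

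By position, 6 of the 482 genes tested on the X chromosome were lower (1.24%), namely Zcchc5, Itm2a, Cited1, Gpr50, Nrk and Gm5127. Chromosome 9 held 10 of 790 (1.27%), and over all genes 0.719% were lower by the gap. Some lower genes were close neighbours, such as Rgs5 and Rgs4 on chromosome 1, 45664 bp apart, both of which damp G protein signalling. Rgs5 was at 32.8 and 58.3 CPM in WT and at 7.01, 4.36, 8.43 and 21.2 CPM in the mutants. Plagl1 and Phactr2 were 76023 bp apart on chromosome 10, and Phactr2 was at 98.6 and 93.8 CPM in WT and at 52.5, 36, 61.6 and 58.7 CPM in the mutants. Fibcd1 and Lamc3, 41286 bp apart on chromosome 2, were both at or under 2.2 CPM in WT and lower in the mutants. Lamc3 passed the filter on low values only through the WT libraries.

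Upstream sequence was searched for the letters that Gli factors (GACCACCC) and Hand factors paired with an E protein (CAGATG) are known to favour, on both strands, in RefSeq windows (GRCm38.p6) that end at annotated starts. Windows were found for 67 of the 99 lower genes and 11 of the 22 higher genes. The Gli letters occurred in 1 of 92 lower windows (1.09%), in 0 of 18 higher windows and in 102 of 13529 windows over all genes (0.754%). The Hand letters occurred in 14 of 92 lower windows (15.2%), in 3 of 18 higher windows (16.7%) and in 1344 of 13529 over all genes (9.93%). These are matches of letters only. The Gli letters are the canonical, high-affinity motif. The study reports a divergent Gli motif of lower affinity at most sites bound by both Gli3 and Hand2, including sites at the Plagl1 and Maf loci. That divergent motif was not searched for, so the counts and the windows below do not show whether it is present. The windows of Sdpr, the gene with the smallest p, and of Plagl1, the most abundant of the 15 lower genes, are shown 5′ to 3′ on their own + strands, with a Hand match in capitals on whichever strand it lies. Of the letters searched, Sdpr (chr1:51288876-51289125) has neither motif, and Plagl1 (chr10:13090582-13090831) has 1 Hand match, on the opposite strand. Plagl1 was picked by name and not by its p. The windows read for Islr and Pmp22, which are not shown, also have neither motif.
Sdpr: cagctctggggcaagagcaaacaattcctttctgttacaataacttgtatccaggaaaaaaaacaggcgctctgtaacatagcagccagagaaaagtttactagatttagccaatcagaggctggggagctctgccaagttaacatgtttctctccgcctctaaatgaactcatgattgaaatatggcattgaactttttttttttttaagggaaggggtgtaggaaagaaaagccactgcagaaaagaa
Plagl1: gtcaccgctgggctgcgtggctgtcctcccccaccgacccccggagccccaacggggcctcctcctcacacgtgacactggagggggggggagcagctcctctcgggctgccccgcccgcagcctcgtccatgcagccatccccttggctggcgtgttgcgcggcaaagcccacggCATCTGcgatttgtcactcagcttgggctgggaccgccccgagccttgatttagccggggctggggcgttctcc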

How the data were processed

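Bulk RNA-seq libraries were grouped by the genotype and replicate number in their titles. The deposited files hold estimated counts (expected counts) per transcript, which the authors made in Strand NGS from paired-end reads mapped to mm10, and DESeq2 is named in their processing notes. The version of Strand NGS was not given in the sources used here, nor were its gene models. The series text and the study name different sequencers. Per library, 47.7% to 56.8% of values were not whole (tolerance 0.01). The design had assumed whole counts, so the estimated counts were summed per gene symbol (33641 symbols from 105129 transcripts) and rounded. How near-identical transcripts share reads is set by the authors' program. No 2 libraries of a group differed by as little as sampling noise (chi-square per degree of freedom 24 to 225).

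Genes with at least 1 CPM in 2 or more of the 6 libraries entered edgeR 4.0.16 under R 4.3.3 (TMM scaling, quasi-likelihood fit with mutant as the only term, 4 residual degrees of freedom, common biological coefficient of variation 0.28). P-values were adjusted by Benjamini-Hochberg over all 13761 genes, and a call needed an adjusted p below 0.05 with a fold above 1.5, as in the study. Intervals are at 95%. For a single gene, the smallest exact permutation p of 4 against 2 libraries is 0.0667. The knockouts were compared in a second fit with genotype as a factor, in which the Gli2/3 cKO has no replicate and borrows the spread of the other groups. DESeq2 1.42.0, limma 3.58.1 (voom with sample weights), other scalings and filters, a removed length trend and leaving out each library were alternatives. The test was also run on simulated counts with the same spread for every gene and the same fold in every mutant. Those counts hold no difference between the knockouts and no length trend, so they cannot show how the test behaves with these. Coordinates and gene classes are from GENCODE M21 (mm10). Depth sets the precision of low values, and means are given with SE or SD.

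The rule for named genes took, per direction, up to 15 genes called with all mutants outside WT, and where fewer were called it was filled with those of smallest unadjusted p among the gap-shifted, with a mean log2 CPM of at least 1 and without ribosomal protein genes, pseudogenes or numbered gene models. It added Hand2, Gli2, Gli3 and Wnt1, and per list the members of smallest p, at most 4. The members and lists were chosen with earlier results of these data known. Of an X-inactivation list no gene was tested. The values of 1 arch patterning gene are not reported here.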

Additional observations from a re-analysis of the deposited data

Results flagged for a closer look

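Among the 83 genes named or listed, 11 had 1 mutant library far from the other 3 by Dixon's ratio, where chance flags about 1 in 20 groups. In 6 of them the Gli2/3 cKO stood above the 3 Hand2 cKO libraries or below them: Hand2 at 146 CPM, Hand1 at 35.7 CPM, Igf2 at 2601 CPM, Lrrc17 at 14.1 CPM and Egln3 at 9.51 CPM were higher there, and Foxf1 at 4.91 CPM was lower. Hand2 cKO 2 was the distant library in Ccne1 (150.2 CPM) and Pgam1 (994 CPM), Hand2 cKO 1 in Npr3 (17.2 CPM) and Pax3 (4.25 CPM), and Hand2 cKO 3 in Slc15a2 (17.5 CPM). The test between the knockouts passed after adjustment for Foxf1 among the named genes, with a difference of 2.59 on the log2 scale (Hand2 cKO minus Gli2/3 cKO, adjusted p 0.0432 in edgeR), and 1 library stands for the Gli2/3 cKO.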

How the results depend on the processing

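Called genes depended on the tool. edgeR called 0 higher and 0 lower, DESeq2 22 and 77, and limma voom 1 and 59. Within edgeR, the lower count was 1 with no filter on low counts (Sdpr), 1 with genotype as a factor and both knockouts averaged (Foxf1) and 7 with the length trend removed (Sdpr, Islr, Pmp22, Itm2a, Nrk, Plagl1 and Synpo2). Leaving out 1 library gave 0 to 3 higher and 0 to 6 lower calls, the most without Hand2 cKO 3, where all but Sdpr were numbered gene models, pseudogenes or a related sequence. Genes shifted in all mutants numbered 1575 higher and 1473 lower with no gap, 8 and 38 with a 2-fold gap, 133 and 375 with no filter, and 6 and 38 at a mean CPM of at least 5, an alternative added after seeing the data. Leaving out 1 library gave 24 to 239 higher and 119 to 366 lower, the most without WT 3, so a single WT library sets a much wider list. Without either WT library 72 of the 99 lower genes were kept, since genes under 1 CPM in all mutants then failed the filter, and without Hand2 cKO 2 all 99 were kept. Other scalings kept 98 or 99 of the 99 and 19 to 22 of the 22, and removing the length trend kept 84 and 17. Of the single genes' log2 fold changes, 1268 values kept their direction and side of the threshold, 54 became called and 2 reversed, Hba-a2 and Hbb-bs, both without WT replicate 4, with ranges over left-out libraries of -3.17 to 1.03 and -6.27 to 0.917. No paired analysis was possible because WT and the mutants share only replicate number 3. Depth limits genes near 1 CPM, and the list counts under other scalings and without a library were added after seeing the data.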

Other observations

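Some of the gap-shifted lower genes were in none of the lists. Ncam1, a cell adhesion molecule of nerve and muscle, was at 28.7 and 26.7 CPM in WT and at 16.3, 10.8, 16 and 16.4 CPM in the mutants. Tubb2b, a beta tubulin of neurons and their precursors, was at 122 and 162 CPM in WT and at 70.5, 77.6, 61.9 and 53.1 CPM in the mutants. Epha3, an ephrin receptor, was at 58.8 and 41.1 CPM in WT and at 21.4, 10.9, 23.1 and 24.5 CPM in the mutants. Olfml3, a secreted matrix protein, was at 38.2 and 37.7 CPM in WT and at 16.5, 16.6, 18.5 and 11.1 CPM in the mutants, and Kif26b, a kinesin-like protein, was at 217 and 186 CPM in WT and at 113, 66.4, 106 and 114 CPM in the mutants. All 5 were called by DESeq2, at adjusted p-values of 0.0197, 0.000433, 0.0297, 7.14e-05 and 0.0195, and by edgeR none was. They were chosen after their values were seen.

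Tbx4, a T-box factor best known from the hindlimb, was at 5.46 and 5.61 CPM in WT, at 1.55, 0.856 and 1.49 CPM in the Hand2 cKO and at 3.25 CPM in the Gli2/3 cKO. Tmem30b, from the epithelial list, was at 3.12 and 3.28 CPM in WT, at 16.6, 15.3 and 13.5 CPM in the Hand2 cKO and at 3.17 CPM in the Gli2/3 cKO, so its pooled log2 fold change of 1.93 rested on the Hand2 cKO libraries.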
